A study of Homo sapiens with 96 samples.

Results

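Adenosine-to-inosine editing in K562 cells treated with imatinib was set against that in cells given DMSO, at 6, 12, 24, 36 and 48 h. The comparison used 10 of the 96 samples in the series, the 5 labelled as imatinib alone at these times and 5 labelled as DMSO alone, and each imatinib sample was paired with the DMSO sample of the same time. At 6 h these were the samples numbered 2 for imatinib and 3 for DMSO, and other samples of that time were not used here. K562 is a human cell line from a chronic myeloid leukemia that carries the BCR-ABL fusion kinase. Imatinib inhibits this kinase, and DMSO is the solvent control. No allele or further agent is labelled in either group. Total RNA was depleted of ribosomal RNA and sequenced, so unspliced introns were covered as well as mature transcripts. There was 1 library for each treatment and time, and the labels do not say whether the libraries came from separate cultures, so the p-values measure only the spread between these samples.

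The measurement was the editing level of 4092 listed sites, which is the share of reads that carry the edited base, as a fraction from 0 to 1. A site was called found in a sample where its level was above 0. A level of 0 cannot be told apart from a lack of reads, and the number of reads behind a level is unknown. Of the listed sites 1664 had a level above 0 in 1 or more of these samples. The list holds no expression values, so the identity of the cells and the response to imatinib could not be checked against marker genes.

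ADAR enzymes convert adenosine to inosine in double-stranded RNA, and inosine is read as G by the sequencer. Such double strands often form when a transcript holds 2 copies of a sequence in opposite orientation, which lie mostly in introns and 3′ UTRs. In coding sequence an edit can replace an amino acid, and in other regions it alters the pairing or the binding of the RNA.

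A selection of sites with uneven detection between the groups and a pair of coding sites found throughout are shown first. Each sequence is RNA from GRCh38, read 5′ to 3′ along the transcript with 12 bases on either side, and the edited adenosine is in capitals. The first 4 lines are sites found in 3 or 4 imatinib samples and in no DMSO sample, the next 3 are sites found in 3 or 4 DMSO samples and in no imatinib sample, and the last 2 are coding sites found in all 10 samples.
NCKAP1, 3′ UTR, chromosome 2, position 182916343, minus strand: uggacagaugcuAcagaccuccauu
IGF2BP3, intron, chromosome 7, position 23400366, minus strand: ucuaaguccaaaAccaccugcuuau
TMEM245, intron, chromosome 9, position 109042090, minus strand: ccauuuaucuccAggguucuuugga
CFAP70, intron, chromosome 10, position 73299601, minus strand: gcucagaaggcaAgugccaaagcca
AKAP11, CDS, chromosome 13, position 42313048, plus strand: uccucuggcaguAaugguaacagca
NLK, intron, chromosome 17, position 28046033, plus strand: cuggaauagcauAugacaagaaacu
FBXL4, intron, chromosome 6, position 98922725, minus strand: caauucugaguuAaaugacaaaauc
SON, CDS, chromosome 21, position 33551013, plus strand: aacuggggcacuAgaguugccuggg
COG3, CDS, chromosome 13, position 45516236, plus strand: accauuaaggaaAuuucccuggacc

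The first question was whether more sites were edited detectably under imatinib. The imatinib samples held 183, 162, 428, 606 and 578 found sites at 6, 12, 24, 36 and 48 h. The DMSO samples held 173, 154, 337, 492 and 633. Both groups had their lowest number at 12 h and several times as many at 36 and 48 h, so the groups overlapped widely, and imatinib was higher in the first 4 pairs and lower at 48 h. The mean was 391.4 ± 211 (SD, n = 5) with imatinib and 357.8 ± 206 with DMSO. The paired difference of 33.6 sites (SD 68.6), which was 13.5 without the 36 h pair, 19.2 without the 24 h pair and 55.8 without the 48 h pair, did not exceed the spread between pairs (exact sign-flip permutation test, two-sided, p = 0.3125, Benjamini-Hochberg adjusted p = 0.625 over 6 measures). With 5 pairs this exact test cannot go below p = 0.0625. The number of reads moved the same way: the imatinib library had 1.04, 1.06, 1.09 and 1.07 times the reads of its DMSO partner at the first 4 times and 0.848 times at 48 h, while the ratios of found sites were 1.06, 1.05, 1.27, 1.23 and 0.913. Found sites per 1000000 reads were 5.05, 3.97, 11.1, 15.2 and 17.0 with imatinib and 4.97, 3.98, 9.48, 13.2 and 15.8 with DMSO. By this measure imatinib was higher at 48 h as well and lower only at 12 h, by a small margin.

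**Figure D1:**
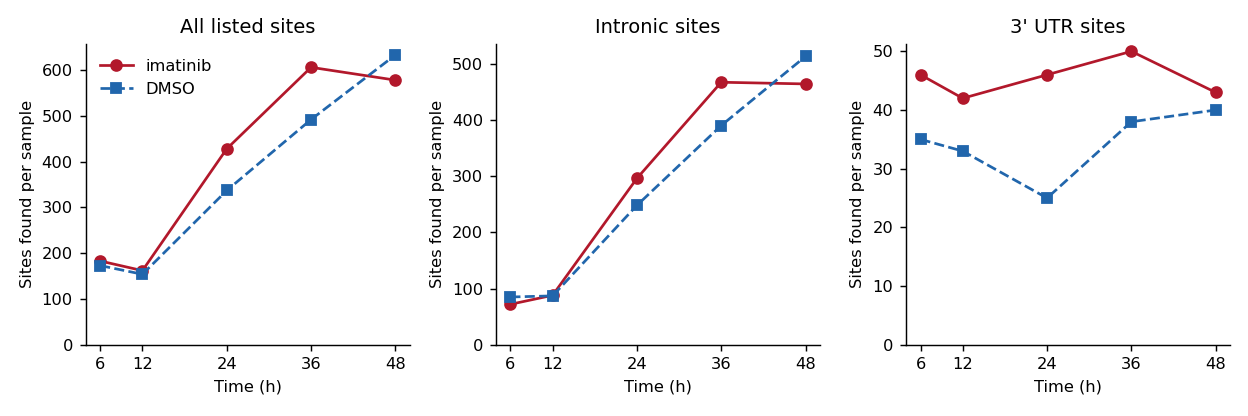
Number of found sites (vertical axis) against time in hours for imatinib (red circles) and DMSO (blue squares), 1 sample per point, for all listed sites, intronic sites and 3′ UTR sites. Totals and intronic sites climb with time in both groups and cross by 48 h, while 3′ UTR sites range from 42 to 50 with imatinib and from 25 to 40 with DMSO.

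The climb with time was made up mainly of intronic sites. Found intronic sites numbered 72, 88, 296, 467 and 464 with imatinib. In DMSO they numbered 85, 87, 248, 390 and 513. Neither group was above the other throughout, and the mean difference was 12.8 sites (exact sign-flip permutation test, p = 0.6875). Sites in vlincRNAs, which are very long intergenic non-coding RNAs, numbered 42, 16, 34, 31 and 22 with imatinib against 28, 14, 21, 21 and 23 with DMSO, and were higher with imatinib in 4 of 5 pairs (same exact test, p = 0.125).

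Sites in 3′ UTRs did not climb in this way, and they were the one element in which the counts of the groups did not overlap. The imatinib samples held 46, 42, 46, 50 and 43 of them. The DMSO samples held 35, 33, 25, 38 and 40. Imatinib was higher in 5 of 5 pairs, by 11.2 sites on average (SD 6.50), which is the smallest p-value the paired test can give (exact sign-flip permutation test, two-sided, p = 0.0625, adjusted p = 0.5 over 12 counts). These counts were chosen after the values had been seen, and the test as set cannot reach the threshold. At 48 h the imatinib library was above its partner in 3′ UTR sites by 3, with fewer reads. Per 1000000 reads the counts were 1.27, 1.03, 1.19, 1.25 and 1.26 with imatinib and 1.01, 0.853, 0.703, 1.02 and 0.997 with DMSO.

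The same elements were also compared as shares of the found sites of each sample. The share in 3′ UTRs was 25.1, 25.9, 10.7, 8.25 and 7.44% with imatinib and 20.2, 21.4, 7.42, 7.72 and 6.32% with DMSO, higher in 5 of 5 pairs by 2.88 percentage points (SD 1.97). The share in introns was lower in 5 of 5 pairs, by a mean difference of -3.87 points (SD 3.56), and the share in vlincRNAs was higher in 5 of 5 by 2.06 points (SD 2.69). Without the 6 h pair these differences were -2.39 points for introns and 0.880 points for vlincRNAs. All 3 had p = 0.0625 in the exact sign-flip permutation test and an adjusted p of 0.208 over 10 elements. Shares of one sample sum to a whole, so these 3 are not separate results. The shares in 5′ UTRs, CDSs, lncRNA exons and introns and antisense positions had no direction common to all 5 pairs.

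The 122 found 3′ UTR sites lay in 52 host genes, and 25 of these genes had more detections with imatinib, 16 had more with DMSO and 11 were equal, beside 45.6% and 40.3% of all host genes with more in imatinib and in DMSO. A detection here is 1 site found in 1 sample, and there were 227 in the imatinib group and 171 in the DMSO group. TEP1, which encodes a telomerase-associated protein, held the most 3′ UTR sites, 20 of them within 840 bases on chromosome 14 from 20366192 to 20367031. Its sites found numbered 13, 2, 4, 4 and 5 with imatinib and 6, 6, 0, 0 and 3 with DMSO, and 8 of the 13 at 6 h were seen in that sample alone. Without TEP1 imatinib was still higher in 5 of 5 pairs, by 8.6 sites, but the groups then overlapped, with 33 to 46 sites against 25 to 38. With 1 site counted per cluster the mean difference was 4.4 sites, and with levels above 0.2 alone it was 4.8. Counted as host genes with a 3′ UTR site, the difference was 3.0 genes, higher in 4 of 5 pairs. EIF2AK2 encodes PKR, a kinase activated by double-stranded RNA, and had 8 found sites in its 3′ UTR on chromosome 2. They were found 4, 6, 6, 6 and 5 at a time with imatinib, and 4, 1, 3, 6 and 5 at a time with DMSO, so the gap lay at 12 and 24 h. ZNF514, a zinc finger gene, had 3, 3, 1, 6 and 3 against 5, 2, 0, 2 and 0. UGGT1, which senses misfolded glycoproteins, had 2 sites in its 3′ UTR that were found together in the imatinib samples of 6, 24 and 36 h and in no DMSO sample, at levels of 0.0204, 0.114 and 0.215 at one and 0.0465, 0.21 and 0.15 at the other. NCKAP1, a subunit of the actin-regulating WAVE complex, had its first-listed site above at 0.5 at 6 h, 0.625 at 24 h, 0.8 at 36 h and 0.571 at 48 h with imatinib, and it was not found with DMSO.

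The second question was whether the same sites were edited to another level. At the sites found on both sides of a pair, which numbered 65, 46, 147, 216 and 273, the median difference imatinib minus DMSO was 0.0286, -0.0123, -0.065, -0.0272 and 0.0. The largest gap was at 24 h, where 53 sites were higher and 90 lower with imatinib. The mean over the pairs was -0.0152 (SD 0.0346; exact sign-flip permutation test, two-sided, p = 0.5, adjusted p = 0.675). Sites that were shared at the same time differed by a median of 0.0853 to 0.112 in either direction. Samples of one treatment at neighbouring times differed by 0.0673 to 0.114 with imatinib and by 0.104 to 0.122 with DMSO, so by this measure, which leaves out the sign, the treatment gap was within the range seen between times. The signed median of -0.065 at 24 h lay outside the signed medians between neighbouring times, which were 0.0 to 0.0442. The median level over all found sites was 0.417, 0.424, 0.3, 0.312 and 0.333 with imatinib and 0.4, 0.406, 0.342, 0.318 and 0.314 with DMSO, a mean difference of 0.00131 (SD 0.0266, same exact test, p = 1.0).

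**Figure D2:**
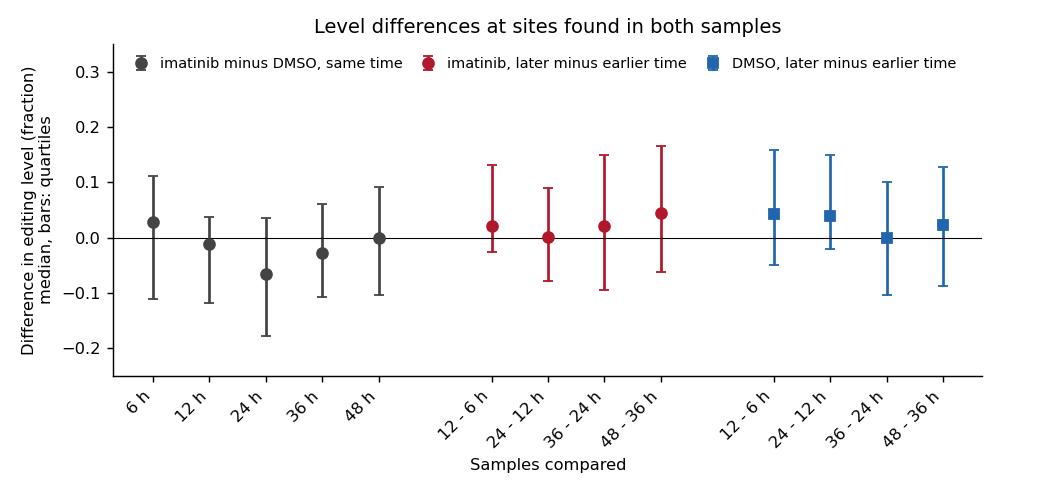
Difference in editing level (fraction) at sites found in both samples of a comparison, as the median with bars from the lower to the upper quartile over sites. The 5 comparisons of imatinib minus DMSO at one time have medians from -0.065 to 0.0286, and those of a later minus an earlier time within a treatment lie between 0.0 and 0.0442.

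Site by site, levels could be tested at 74 sites found on both sides in at least 3 pairs. None passed the adjusted threshold of 0.05 in limma (0.0% of 74), 2 had an unadjusted p under 0.05 (2.7%), and the smallest adjusted p was 0.780. The fitted difference was above 0 at 29 sites and below 0 at 45, with a median of -0.0110. The largest positive mean was in an intron of PAQR3, a Golgi protein, with levels of 0.833, 0.833 and 1.0 under imatinib at 12, 24 and 48 h and of 0.5, 0.833 and 0.625 under DMSO at these times (difference 0.236 ± 0.0918 SE, limma adjusted p = 0.780). The most negative was in the 5′ UTR of MRPS22, a mitochondrial ribosomal protein, with 0.431, 0.498 and 0.688 at 24, 36 and 48 h under imatinib and 0.625, 0.819 and 0.761 under DMSO (-0.196 ± 0.0749 SE, limma adjusted p = 0.780). MRPL3, another mitochondrial ribosomal protein, had an intronic site with 0.26, 0.5 and 0.556 against 0.492, 0.589 and 0.719 at the same times. The ion channel gene TRPM7, the secretion gene STXBP5 and the nuclear import gene KPNA1 filled the other negative places, with mean differences of -0.175, -0.156 and -0.152. On the positive side stood SSR4, ITGAV, an EIF2AK2 site and a site antisense to an intron, with mean differences of 0.111, 0.123, 0.129 and 0.152. The EIF2AK2 site, at position 37100954, was at 0.12, 0.256, 0.326, 0.608 and 0.603 with imatinib, and with DMSO at 0.138, not found, 0.535, 0.0909 and 0.378.

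A set of 13 sites was found in every one of the 10 samples, and these give the complete courses. They lay in FAM20B, COG3, LUC7L, PIP5K1C, ITGAV, SON, SPCS3, ADGRB3, PPIA, STRIP2, LINC00534 and, with 2 sites, GNL3L. The coding site of SON, a splicing cofactor, was at 0.02, 0.04, 0.15, 0.21 and 0.273 with imatinib and at 0.02, 0.03, 0.13, 0.21 and 0.259 with DMSO. Both courses climbed at every step and never stood more than 0.02 apart, with a mean difference of 0.0087 (SE 0.0428, limma adjusted p = 0.99). The 3′ UTR site of PPIA, which encodes cyclophilin A, ran from 0.0838 through 0.07, 0.158 and 0.257 to 0.294 with imatinib, and from 0.05 through 0.133, 0.234 and 0.313 to 0.316 with DMSO. STRIP2 had the most negative mean of the 13, with 0.21, 0.268, 0.188, 0.321 and 0.458 against 0.161, 0.387, 0.347, 0.469 and 0.564 (-0.0963 ± 0.05 SE, limma adjusted p = 0.780). The coding site of COG3, a subunit of a Golgi tethering complex, was at 0.119, 0.14, 0.429, 0.327 and 0.369 against 0.09, 0.255, 0.312, 0.5 and 0.303. Levels at 48 h were above those at 6 h at 12 of the 13 sites with imatinib and at 11 with DMSO, by a mean over the 13 of 0.144 and 0.156. The mean paired difference was below 0 at 10 of the 13 sites and above 0 at 3, and ranged from -0.0963 to 0.123. Within a pair the median gap was 0.077 in either direction.

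**Figure D3:**
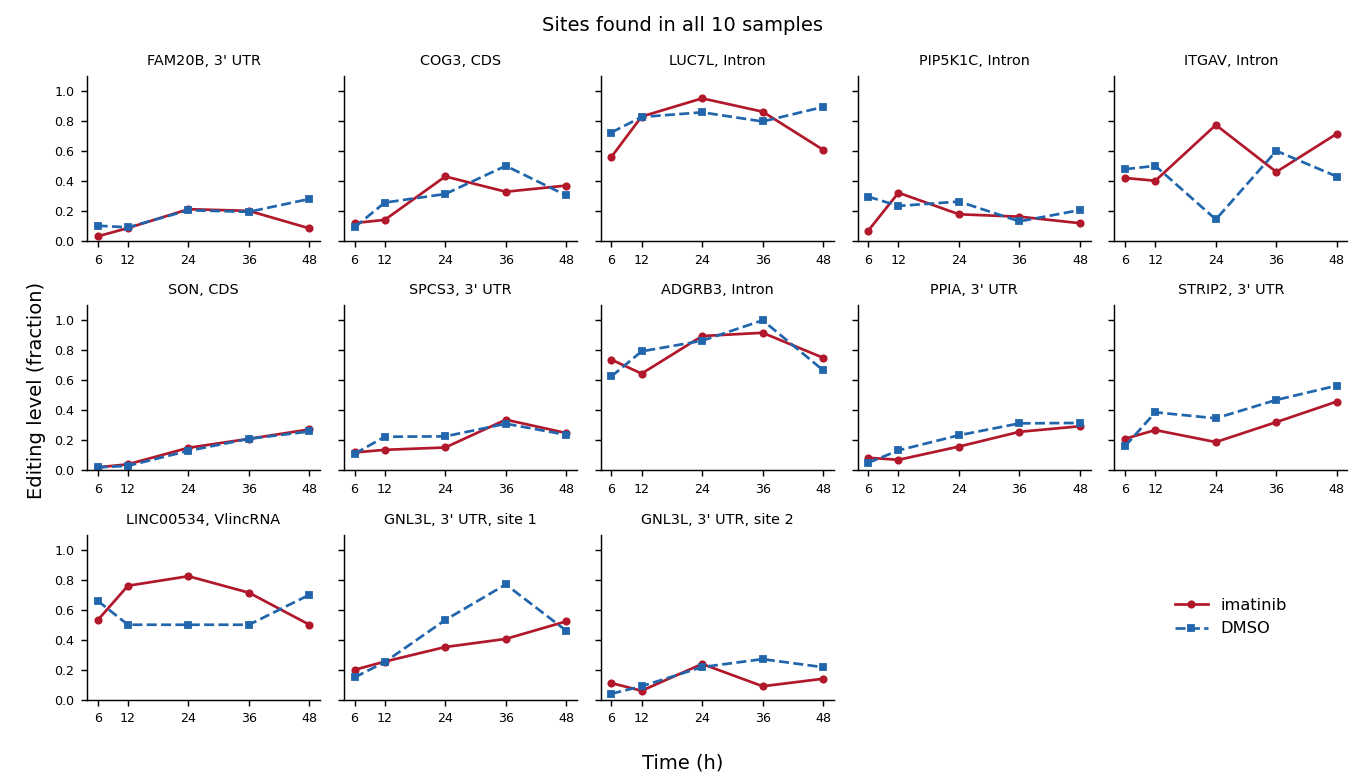
Editing level (fraction, vertical axis) against time in hours at the 13 sites found in all 10 samples, with imatinib as red circles and DMSO as blue squares, 1 sample per point. The courses of SON lie within 0.02 of each other and climb together, and those of ITGAV cross.

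The third question was which sites were found on one side only. Of the 1664 sites 567 were found with imatinib only, 436 with DMSO only and 661 in both groups. Most one-sided sites were seen once: 469 of the 567 and 353 of the 436 were found in a single sample. The paper reports that calls from single samples were too inaccurate for it to determine sites specific to a drug. It also reports that part of the tested sites in its final list failed Sanger sequencing. A one-sided site is thus a difference in calls, and need not be a true edit of one treatment. In Fisher's exact test of samples with the site, no site passed after adjustment (0.0% of 1664), 7 had an unadjusted p under 0.05 (0.421%), 4 of them more frequent with imatinib and 3 with DMSO, and no site was found in all 5 samples of a group and in none of the other. A split of 4 samples against 0 gives an exact p of 0.0476 before adjustment. Even 5 against 0 would give 0.00794 in the same test, so over 1664 sites no single site could pass after adjustment, whatever its split. There were 27 sites in 3 or more imatinib samples and no DMSO sample (1.62%), in 21 host genes, and 11 in 3 or more DMSO samples and no imatinib sample (0.661%), in 10 host genes.

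IGF2BP3 and TMEM245 each had 3 of the 27. IGF2BP3 encodes an RNA-binding protein of fetal and cancer cells, and its site printed above was at 0.5, 0.398, 0.727 and 0.222 at 12, 24, 36 and 48 h with imatinib. The printed site of TMEM245, a membrane protein gene, was at 0.188 at 6 h and at 0.3, 0.375 and 0.195 from 24 to 48 h. The site in CFAP70, a gene of cilia, had levels of 1.0, 0.894 and 1.0 from 24 to 48 h, and was not found at 6 and 12 h or with DMSO. It is labelled unannotated, so it was not known from databases, and the number of reads behind these levels is unknown. LINC01608, a long non-coding RNA on chromosome 8, was the other with 4 samples, at levels from 0.333 to 0.667. The sites with 3 samples included introns of NUP58, a nuclear pore protein, ACACA, which makes malonyl-CoA for fatty acid synthesis, and YWHAZ, a 14-3-3 protein.

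On the DMSO side the sites with 4 samples were in AKAP11, NLK and LINC00534. AKAP11 anchors protein kinase A, and its coding site was at 0.24 at 6 h and at 0.23, 0.3 and 0.3 from 24 to 48 h. In the canonical transcript this edit would read as N1759D, where residues are counted from the first methionine. NLK encodes Nemo-like kinase, and its printed site was at 0.25, 0.364, 0.125 and 0.25 from 12 to 48 h. FBXL4, a mitochondrial F-box protein, had its site at 0.8, 0.75 and 1.0 at 6, 36 and 48 h. DBF4, the activator of the replication kinase CDC7, had an intronic site at 0.3, 0.334 and 0.213 at 6, 12 and 48 h. An exonic site of LINC-PINT, a p53-induced non-coding RNA, was found in 5 DMSO samples at 0.714, 0.6, 0.714, 0.667 and 0.429. With imatinib it was found only at 6 h (0.5) and 24 h (0.232). Another exonic site of this RNA, at position 130944865, was found on both sides in 4 pairs. Its level was higher with imatinib by a mean of 0.103 (SE 0.0704, limma adjusted p = 0.839).

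**Figure D4:**
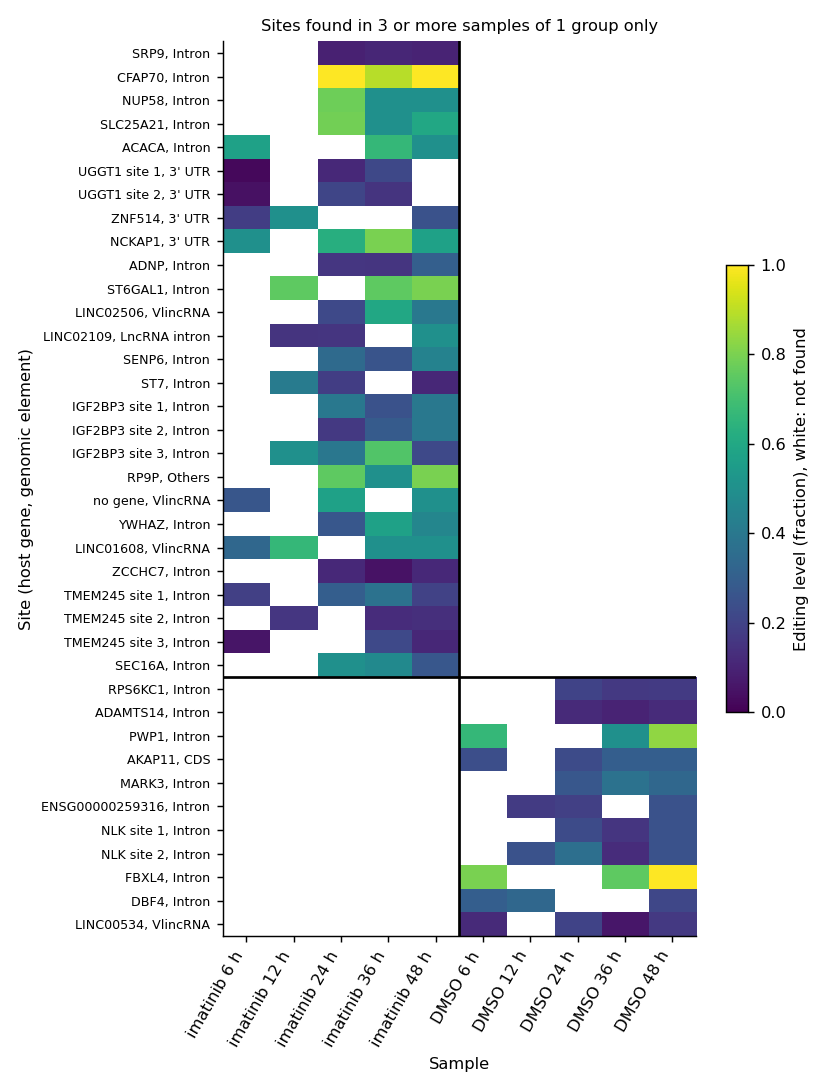
Editing level (fraction, color) in each of the 10 samples (columns) at the 38 sites (rows, by host gene and element) found in 3 or more samples of one group and in no sample of the other. The 27 imatinib sites stand above the 11 DMSO sites, and white marks a sample in which the site was not found.

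By host gene, 660 genes held a found site, and 60.2% of them held a single one. Over these genes 45.6% had more detections with imatinib and 40.3% more with DMSO, and over the 158 genes with at least 3 sites these shares were 52.5% and 41.1%. In the 158 genes with at least 3 sites no gene passed the threshold in limma on log2(sites found + 1) (0.0%), and 6 had an unadjusted p under 0.05 (3.8%), 5 of them higher with imatinib. TMEM245 was the one gene of the 158 whose groups did not overlap (0.633%). It had 6, 3, 3, 6 and 9 sites with imatinib and 2 sites in each of the 5 DMSO samples (log2 difference 1.00 ± 0.30 SE, limma adjusted p = 0.782). All 11 of its sites lie in an intron within 1054 bases, so they are not independent. UGGT1 had the smallest p (log2 difference 1.15 ± 0.32 SE, limma adjusted p = 0.782). RSRC1, a gene of splicing, had 1, 1, 1, 8 and 2 against 0, 1, 0, 0 and 0, and most of its detections came from the 36 h sample. IGF2BP3 had 0, 1, 8, 12 and 6 against 2, 0, 4, 0 and 0 (log2 difference 1.35 ± 0.74 SE, limma adjusted p = 0.782). ST7 had 0, 3, 3, 7 and 11 against 0, 0, 7, 1 and 0. FOXP1, a transcription factor, had 0, 0, 7, 7 and 0 against 1, 0, 0, 0 and 0.

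Other genes leaned to DMSO. NLK had 1, 1, 0, 2 and 4 sites with imatinib and 1, 3, 6, 5 and 11 with DMSO (log2 difference -1.21 ± 0.41 SE, limma adjusted p = 0.782), equal at 6 h and lower in the other 4 pairs. PHF3, which binds the tail of RNA polymerase II, had 0, 1, 2, 1 and 3 against 1, 0, 3, 9 and 8. RAP2C, a small GTPase, had 1, 0, 2, 1 and 2 against 0, 4, 4, 6 and 6. The gene with the most sites, RAB3GAP2, with 28 intronic sites in 782 bases, was at 0, 0, 13, 7 and 15 against 0, 0, 18, 13 and 15, so it was absent at 6 and 12 h in both groups and abundant from 24 h. LINC00534, PRKCA, STXBP5, MTCH1 and RB1CC1, with 13 to 18 sites each, also had groups that overlapped, and they did not all lean to DMSO. The log2 difference was 0.80 in PRKCA and 0.11 in RB1CC1, and -0.29, -0.46 and -0.13 in LINC00534, STXBP5 and MTCH1.

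**Figure D5:**
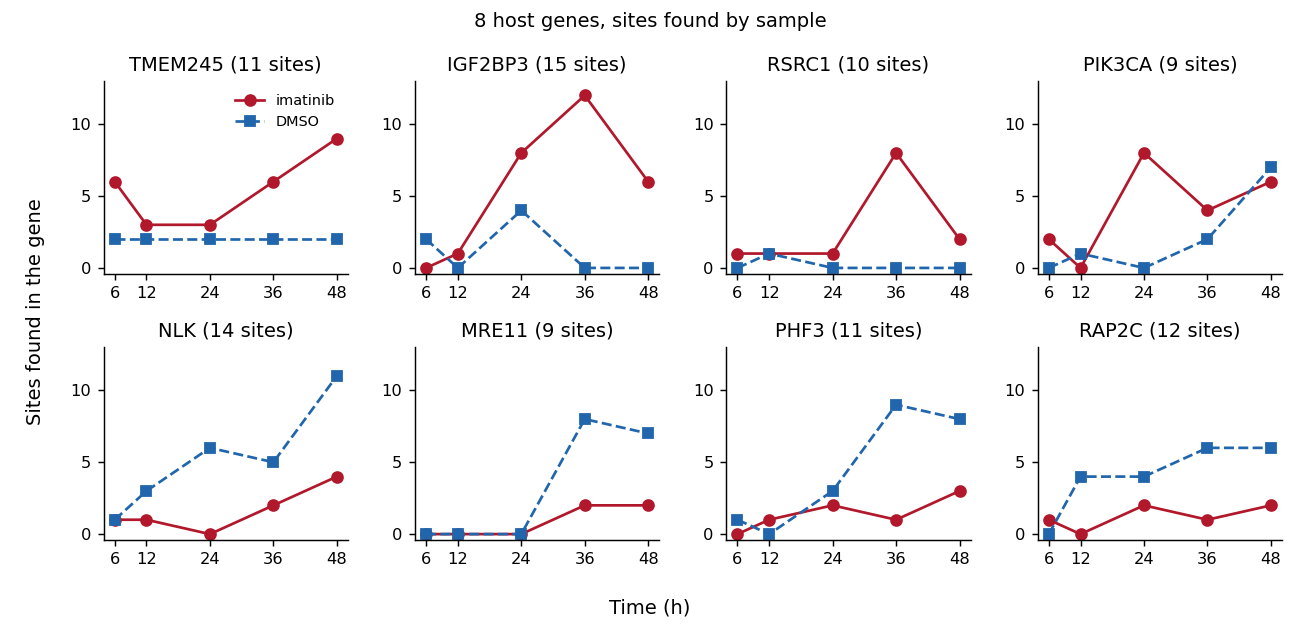
Number of sites found in 8 host genes (vertical axis) against time in hours, imatinib as red circles and DMSO as blue squares, 1 sample per point. TMEM245 stays at 2 sites in DMSO against 3 to 9 with imatinib, and NLK, PHF3, RAP2C and MRE11 are higher in DMSO at 36 and 48 h.

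Stretches complementary to the sequence around these sites were also sought nearby. For each site the longest unbroken run of Watson-Crick pairs was sought between the 101 bases around it and the 2000 bases on each side. Over the 1664 found sites the median was 14 bases, and 48.4% had a run of at least 15, against 50.7% of all listed sites with levels. The shares were 49.2% at imatinib-only and 45.6% at DMSO-only sites. TMEM245 stood high in this measure, with a run of 66 bases to a partner 1079 bases away. Among the other genes with more detections in imatinib, the longest run within this distance was 43 bases in ST7, 38 in RSRC1, 24 in IGF2BP3, 15 in FOXP1, 13 in PIK3CA and 10 in UGGT1. Among those with more in DMSO it was 45 in FBXL4, 26 in RAB3GAP2, 21 in PHF3, 12 in NLK, and 10 in RAP2C and MRE11. Long and short runs thus occurred on both sides. No unedited sequence was searched in the same way, so how often runs of these lengths arise by chance was not tested. Short runs in particular need not mark a partner, and folding itself was not tested. Edited adenosines were found on both arms in TMEM245 and in RSRC1, as the following pairs of windows show. The first pair shares 12 complementary bases in a row and its sites lie 1013 bases apart, and the second shares 17 and lies 1175 bases apart on chromosome 3, plus strand.
TMEM245, position 109042090: ccauuuaucuccAggguucuuugga
TMEM245, position 109043103: ccaaagaacccuAgagacgagugau
RSRC1, position 158233824: cagucugcaguuAccucaugcucug
RSRC1, position 158234999: gagcaugagguaAcugccgacugcu
At position 109043103 the TMEM245 site was found in 3 samples of each group, with 0.478, 0.75 and 0.875 in imatinib at 6, 12 and 48 h and 0.429, 0.625 and 0.667 in DMSO at 6, 24 and 48 h. The site on the other arm, at position 109042090, was found in imatinib only. Sites near it were found in both groups, at 109042213 in 2 DMSO samples and at 109042215 in 3. The site at 109043036 was found in 2 DMSO samples and in no imatinib sample. In RSRC1 both printed sites were found in imatinib only, at 0.375 and 0.333 at 24 and 36 h for the first and at 0.5 at 36 h for the second.

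The base before the edited adenosine was U, which ADAR enzymes favor, in 46.9 to 53.6% of found sites with imatinib and in 49.9 to 56.1% with DMSO. The mean difference was -1.76 percentage points (SD 3.15; exact sign-flip permutation test, two-sided, p = 0.3125, adjusted p = 0.625). Sites with another found site within 100 bases made up 36.4 to 53.1% with imatinib and 43.4 to 52.9% with DMSO (p = 0.5625, adjusted p = 0.675, same exact test). Annotated sites, those known from databases, made up 82.2 to 88.3% and 84.4 to 88.3% (p = 0.1875, adjusted p = 0.625, same exact test). Neither share moved the same way in all 5 pairs.

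As the samples hold editing levels only, more edited transcripts and more of the transcript cannot be told apart. Genes of BCR-ABL and its signalling were followed as a list because imatinib acts on that kinase. Of 40 genes 6 had found sites, 31 sites in all, and each of the 6 had more detections with imatinib than with DMSO, beside 45.6% of all host genes. Detections numbered 4, 2, 11, 19 and 14 with imatinib and 0, 1, 4, 10 and 17 with DMSO, so the order was turned at 48 h. They were 2.55% of all detections with imatinib and 1.79% with DMSO. PIK3CA, the catalytic subunit of a PI3 kinase, made up the most of the gap with 2, 0, 8, 4 and 6 sites against 0, 1, 0, 2 and 7 (log2 difference 0.86 ± 0.60 SE, limma adjusted p = 0.796). ABL1, which provides the kinase part of the fusion, had 1, 0, 0, 7 and 3 against 0, 0, 1, 5 and 2, all in introns (log2 difference 0.17 ± 0.34 SE, limma adjusted p = 0.942). Its site at chromosome 9, position 130752337, was at 0.523 and 0.587 at 36 and 48 h with imatinib and at 0.75, 0.5 and 0.26 from 24 to 48 h with DMSO. BRAF, AKT2 and GAB2 had 1 to 3 sites each.

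The other lists held fewer detections. In the list of DNA repair genes 3 of 52 had found sites, and all 3 had fewer detections with imatinib, beside 40.3% of all host genes. They had 7 against 22 in total, or 0.358% of all detections with imatinib and 1.23% with DMSO. MRE11, a nuclease that processes DNA ends, gave most of them, with 0, 0, 0, 2 and 2 against 0, 0, 0, 8 and 7 sites in an intron within 301 bases, so this is largely 1 cluster at 36 and 48 h (log2 difference -0.60 ± 0.36 SE, limma adjusted p = 0.782). The glycosylase NEIL1 had 2 coding sites, of which the one that reads as K242R was at 0.6 and 0.5 at 12 and 48 h with imatinib and at 0.5, 0.833 and 0.75 at 6, 24 and 48 h with DMSO. Zinc finger genes, taken by their symbols, had 30 detections with imatinib and 19 with DMSO, or 1.53% and 1.06% of all detections. They lay in 13 genes, 9 of which had more with imatinib, beside 45.6% of all host genes, and ZNF514 alone gave 16 and 9. Known recoding targets of ADAR had 22 and 25 in 8 genes. Erythroid genes had 6 and 6 in 3 genes, cell cycle genes 3 and 1 in CDC45 and ORC3, and apoptosis genes 0 and 1, in BIRC6.

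Coding sequence held 20 found sites in 15 genes, 5 found with imatinib only, 8 with DMSO only and 7 in both, and 9 were found in 1 sample. The samples held 2, 6, 6, 5 and 3 of them with imatinib and 5, 4, 10, 4 and 7 with DMSO, with no common direction (p = 0.3125, exact sign-flip permutation test on the counts). The SPG7 and GRAMD4 sites among them are in CDSs by the deposited label, but lie in no CDS of the annotation used here. The COG3 edit reads as I635V. DACT3, an inhibitor of Wnt signalling, had a site (R259G) at 0.501 and 0.5 at 12 and 24 h with imatinib and none with DMSO. BLCAP, a target known for edits at its start, had Y2C at 0.444 at 36 h with imatinib and 0.271 at 12 h with DMSO, and Q5R at 0.21 at 6 h with DMSO only. IGFBP7, a secreted binding protein, had K95R at 0.444 at 36 h with imatinib and at 0.379 at 48 h with DMSO. The SON edit is synonymous in its canonical transcript. All residue changes given here are read from the codon alone, and the paper reports that part of its listed coding sites failed Sanger sequencing.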

How the data were processed

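Per the labels and the study's methods, the authors aligned the reads to GRCh38 with TopHat2 2.1.1 (Picard 2.0.1 and SAMtools 1.9 are also named in the submitters' processing notes), called sites with 3 methods, and filtered the list, including for known variants and repeats, over 130 samples. The paper kept sites whose highest level over the 130 samples was above 0.2 and that were found in more than 1 of them. The 10 samples used here took part in that filter, so a site may be listed because of its levels in them. The deposited editing levels are fractions (0 to 1), for which the authors took the mean of the calling methods that found a site. Of the 130 sample columns 34 belong to no sample of this series and were not used, and 10 were used here; 57 of the 4149 listed sites have no level. Of 32 Sanger-tested sites of these samples in the list, 30 had the tested level in their own column and 0 in another of the 10.

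Host genes and codons came from GENCODE release 44 (the authors used 41) on the same strand, protein-coding genes first; 65 sites had no host gene and 166 had several. Sequences were read from GRCh38. Reads per library came from the study's supplement and enter only as ratios. Groups were paired by time and compared by exact two-sided sign-flip permutation tests on 5 differences. Levels per site (missing where not found, sites found on both sides in at least 3 pairs) and log2(sites found + 1) per host gene with at least 3 sites were tested with limma 3.58.1 in R 4.3.3 with time as a block, and detection by Fisher's exact test, each with Benjamini-Hochberg adjustment. The tests were tried on simulated data. Samples of the same time deviated together over sites with correlations of 0.00858 to 0.213, so pairing rests on the labelled time. Other steps used Python 3.11.15 with scipy 1.17.1 and, for sequences, pysam 0.24.0.

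Members, gene lists and tests were chosen with earlier results of these data known. Named were the 10 host genes with the most sites, the 5 sites each with the largest excess of samples and of level, coding sites, list genes, and genes past the threshold. Named after their values had been seen were the genes with the largest differences in sites found, the genes leading the 3′ UTR counts, the further one-sided sites (NUP58, ACACA, YWHAZ, DBF4), the sites found in all 10 samples and the complementary runs. Single genes of the lists that are not named are not reported here.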

Additional observations from a re-analysis of the deposited data

Results flagged for a closer look

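The share of found sites in CDSs among the imatinib samples had 1 sample apart from the rest. At 12 h it was 3.70% (6 of 162 sites), against 0.519 to 1.40% at the other times, which lies beyond Dixon's limit for 5 samples. The DMSO sample of the same time was at 2.60%. The reason was not tested, and chance alone gives such a gap in about 1 of 20 groups.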

How the results depend on the processing

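In all, 216 alternatives were computed for 23 results, of which 204 kept the direction and the side of the threshold. For the paired sign-flip tests that side could not change, as their smallest p is 0.0625 with 5 pairs and 0.125 with 4. Detection per site, level per site and sites found per host gene stayed at 0 calls under every alternative, including leave-one-out. For detection this says little, as over 1664 sites no single site could pass the adjusted Fisher's exact test, whatever its split. The median level of found sites turned negative with at least 2 methods (-0.00170), with levels above 0.2 (-0.0223) and with the mean in place of the median (-0.00366), and ranged from -0.00322 to 0.0122 when 1 pair was left out, negative without 6, 12 or 48 h. The share in lncRNA introns turned to -0.0887 with 1 site per cluster and to -0.746 with levels above 0.2, and ranged from -0.314 to 0.739 without 1 pair, negative without 24 h. The share with U at -1 turned to 0.831 with 1 site per cluster. The added count of intronic sites ranged from -3.25 (without 36 h) to 28.2, and that of 3′ UTR sites from 8.75 to 13.2, with 4.4 for 1 site per cluster and 4.8 for levels above 0.2; host genes with such a site differed by 3.0, and by 0.6 with levels above 0.2. Without the pairing by time (no replicate block) the same 3′ UTR difference of 11.2 gave an exact unpaired p of 0.00794, the smallest that 5 against 5 can give. Without TEP1 it was 0.0556. These unpaired p-values are not adjusted, and this count was chosen after the values had been seen. Dropping the pairing changed no other call (sites found per sample, exact unpaired p = 0.817). The numbers of found sites per host gene had a median log2 difference of 0.08, with 90 genes above 0 and 68 below; as shares of each sample's found sites they were split 79 and 79. Over sites, samples correlated best with the other treatment's sample of their own time at 6 and 24 h only. The causes were not tested. Depth at a site is unknown, so absence of a site is only a lack of detection.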
